A study of Mus musculus with 8 samples.

Results

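The Bcl2 family decides whether a cell keeps its mitochondria intact or starts to die. It was described here in mouse CD4+ T cells grown as Th17 or Th1 cells with or without Tet2, through 10 members chosen by symbol: Bcl2, Bcl2l1, Mcl1, Bcl2l11, Bbc3, Pmaip1, Bid, Bad, Bak1 and Bax. A member was followed through the array probeset (a set of probes read as 1 value) that the platform annotation pairs with its symbol alone. This gave 9 of the 10 members, each with 1 probeset, among 19938 genes measured the same way. Bax, the partner of Bak1, was not analysed here.

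RNA from 8 cultures was hybridised to Affymetrix arrays, with 2 biological replicates in each of 4 groups. Naive CD4+ cells of C57BL/6 mice, which lacked CD25 and were high for CD62L and low for CD44, were sorted from spleen and lymph node and activated with antibodies to CD3 and CD28. The Th17 Tet2-/- and Th17 wild-type groups were grown with TGF-β1 at 0.5 ng/ml and IL-6 at 10 ng/ml, with IFN-γ and IL-4 blocked by antibodies. The Th1 Tet2-/- and Th1 wild-type groups were grown with IL-12 at 10 ng/ml and IL-2 at 30 U/ml, with IL-4 blocked by an antibody. The sources used here do not give the age of the mice, the way Tet2 was deleted, or whether Th17 cultures also received IL-23 or IL-1β. The values are log2 levels, so a difference of 1 is a doubling. In bulk cultures, fewer cells of a type and less RNA per cell cannot be told apart.

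Prosurvival members such as Bcl-2, Bcl-xL and Mcl-1 hold the pore formers Bak and Bax in check at the mitochondrial outer membrane. BH3-only proteins such as Bim and Puma relieve that check when a cell loses growth factors or suffers damage, and the pores then release cytochrome c and activate caspases. In T cells, Bcl-2 and Mcl-1 are sustained by cytokines such as IL-7 and IL-2, and Bim removes activated cells when an immune response ends. Tet2 is an enzyme that oxidises 5-methylcytosine in DNA, a step towards the loss of methylation at CpG dinucleotides.

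Because the enzyme acts on CpG sites, the CpG content of the promoters is shown for the 2 members whose group means differed most, Bcl2 and Bcl2l11. No methylation was measured on these arrays. Each line gives the 250 bases before the annotated start in the mouse build GRCm38.p6, from RefSeq, read 5′ to 3′ on the gene's own strand, with each CpG in capitals. The Bcl2 stretch is chr1:106714291-106714540 on the minus strand and the Bcl2l11 stretch is chr2:128125788-128126037 on the plus strand, upstream of the first of its starts.
Bcl2: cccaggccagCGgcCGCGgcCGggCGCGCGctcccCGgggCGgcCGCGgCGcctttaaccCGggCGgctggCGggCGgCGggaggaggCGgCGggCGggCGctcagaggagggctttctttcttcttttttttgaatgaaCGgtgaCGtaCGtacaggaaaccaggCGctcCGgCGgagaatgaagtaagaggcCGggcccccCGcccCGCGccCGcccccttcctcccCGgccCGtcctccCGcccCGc
Bcl2l11: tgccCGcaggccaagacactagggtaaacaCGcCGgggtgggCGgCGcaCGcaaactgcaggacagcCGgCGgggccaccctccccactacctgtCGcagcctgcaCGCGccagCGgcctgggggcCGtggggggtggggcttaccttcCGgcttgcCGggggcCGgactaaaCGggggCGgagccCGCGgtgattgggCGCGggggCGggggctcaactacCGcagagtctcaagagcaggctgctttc

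The Bcl2 stretch held 36 CpG and the Bcl2l11 stretch 24. Over windows of 300 bases (250 before the start and 50 after it), Bcl2 had 44 CpG, more than or as many as 98.1% of the 32851 windows in the RefSeq table, whose median was 7 with quartiles of 3 and 20. The 2 Bcl2l11 windows had 27 and 38 CpG, at the 85.8 and 95.6 percentiles. The other members covered most of the range. Mcl1 had 33 CpG and Bbc3 had 30 to 39, while Bak1 had 11 and the 3 Bcl2l1 windows had 1, 14 and 22. In all, 15 windows of 9 of the 10 members, Bax included, were examined, and they had 1 to 44 CpG. The promoter of Pmaip1 was not examined here. The letters TTCNNNGAA, a pattern bound by STAT factors that reads the same on both strands, were in 0 of these 15 windows, against 8.30% of all windows. The forkhead letters GTAAACA, searched on both strands, were in 2 of them, the first Bcl2l11 window and 1 window of Bbc3, against 3.65% of all windows. In the Bcl2l11 stretch printed above they are bases 24 to 30. These letters describe the sequence and do not show that a factor binds there.

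The cultures carried the genes of their labels. The mean of 4 Th17 markers was 8.94 to 9.26 in Th17 Tet2-/- arrays and 9.38 to 9.44 in Th17 wild-type arrays, against 6.01 to 6.04 in Th1 Tet2-/- arrays and 5.83 to 6.10 in Th1 wild-type arrays. The mean of 6 Th1 markers was 7.86 to 7.94 in Th17 Tet2-/- and 7.79 to 7.88 in Th17 wild-type arrays. It was 9.16 to 9.29 in Th1 Tet2-/- and 9.45 to 9.59 in Th1 wild-type arrays. Of the 6, 3 passed lower in Th17 than in Th1 cells in each genotype: Ifng, Tbx21 and Il12rb2. Il18r1 was 0.88 higher in Th17 than in Th1 Tet2-/- cells (limma adjusted p = 0.00566), and averaged 8.59 against 8.30 in wild-type cells. Il18rap averaged 7.22 in Th17 against 7.04 in Th1 Tet2-/- cells, and 6.93 against 7.31 in wild-type cells. For Cxcr3 the means were 7.58 against 7.73 in Tet2-/- and 7.57 against 7.72 in wild-type cells. The Tet2 probeset read 8.37 and 8.42 in Th17 Tet2-/- cells against 8.53 and 8.51 in Th17 wild-type cells, and 8.12 and 7.97 in Th1 Tet2-/- cells against 8.14 and 8.03 in Th1 wild-type cells, so it did not mark the deletion. The sources used here do not say where its probes lie relative to the deleted part. Xist and the Y-linked genes set 2 Th17 arrays apart: replicate 2 of Th17 Tet2-/- had a Y-linked mean of 4.85 against 7.82 to 8.80 on the other 7 arrays, and replicate 1 of Th17 wild-type was the only Th17 array low in Xist (5.20, against 8.62 to 11.3 on the other 3 Th17 arrays). On the 4 Th1 arrays Xist read 4.83 to 5.11, near that Th17 wild-type array, so Xist was high only on Th17 arrays. Replicate 1 of Th17 Tet2-/- (Y-linked mean 8.71, Xist 8.62) and replicate 2 of Th17 wild-type (7.82 and 10.1) were high in both. The sources used here do not give the sex of the mice or whether sexes were pooled. Any difference in sex between the cultures would partly run along with the cell type. The part of sex-linked differences in the Th17 against Th1 results was not tested beyond the settings run. Calls below that were lost without the 2 arrays set apart are given without them as well. Each Th17 group then keeps 1 array, high in Xist (8.62 in Tet2-/-, 10.1 in wild-type), so that setting does not match the cell types in Xist.

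Among the prosurvival members, Bcl2 was higher in Th17 cells than in Th1 cells of both genotypes, by 1.84-fold in wild-type and 1.45-fold in Tet2-/- cells. The Bcl2 probeset (10357043) read 10.30 and 10.19 in Th17 Tet2-/- cells and 10.69 and 10.48 in Th17 wild-type cells, against 9.74 and 9.69 in Th1 Tet2-/- cells and 9.53 and 9.87 in Th1 wild-type cells. All 4 Th17 arrays lay above all 4 Th1 arrays, which no other member showed in either direction; 24.1% of all genes separated in this way, and 14% of all genes did so with Th17 above. Group means were 10.24 ± 0.0730 in Th17 Tet2-/-, 10.59 ± 0.143 in Th17 wild-type, 9.71 ± 0.0368 in Th1 Tet2-/- and 9.70 ± 0.240 in Th1 wild-type cells (SD, n = 2 each).

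**Figure D1:**
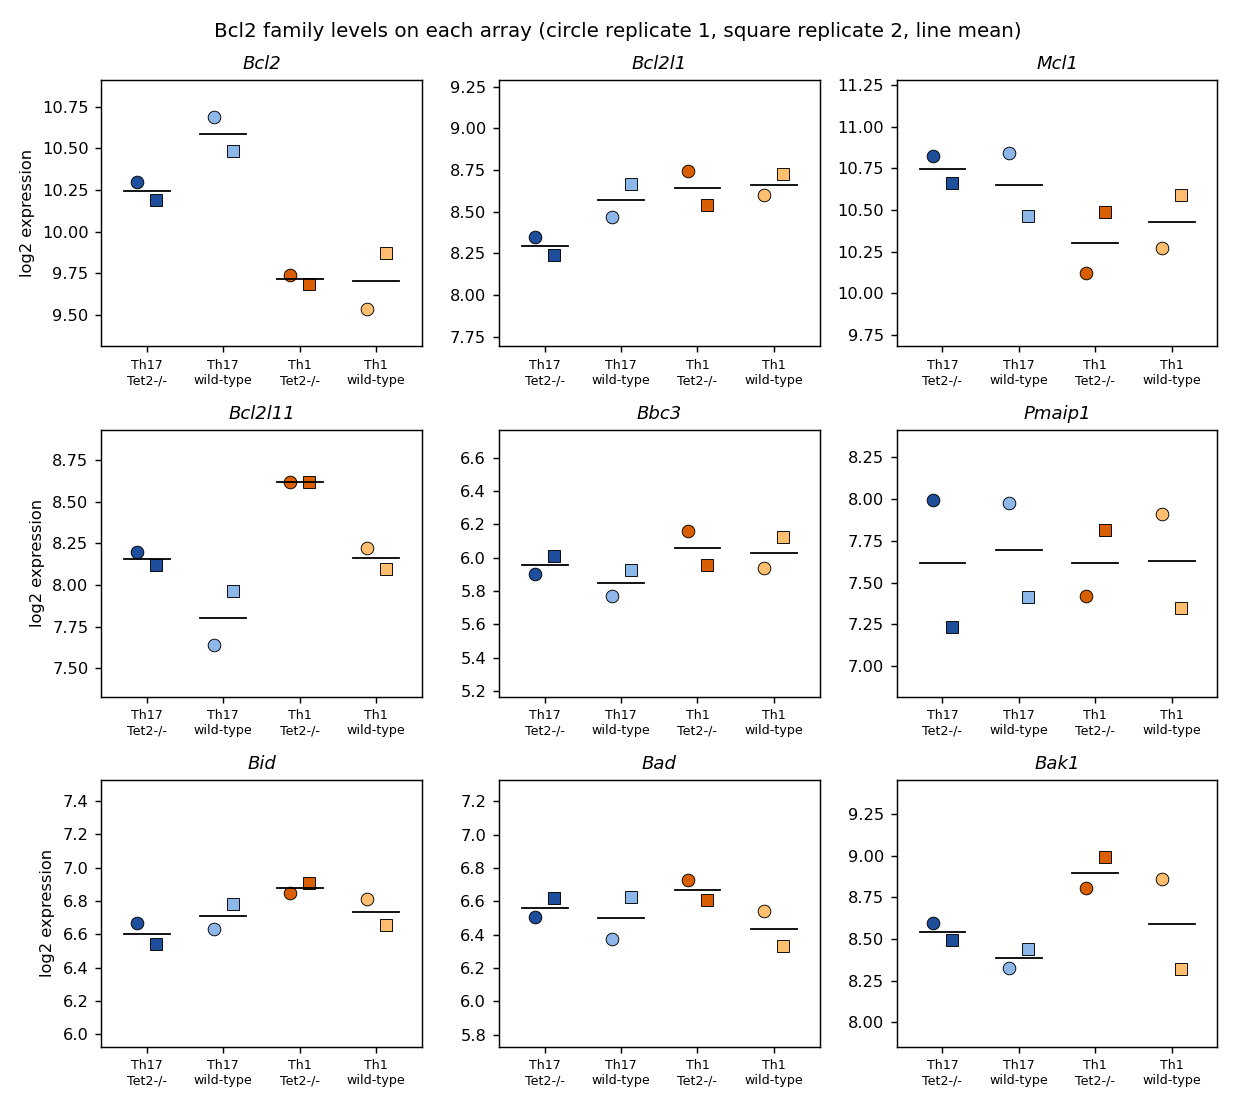
Log2 level of the 9 measured Bcl2 family members on each array, 1 panel per member, with the groups from left to right Th17 Tet2-/-, Th17 wild-type, Th1 Tet2-/- and Th1 wild-type. Circles are replicate 1, squares replicate 2 and lines group means, and every panel spans the same log2 distance. Bcl2 separates all Th17 from all Th1 arrays, Bcl2l11 is highest in Th1 Tet2-/- cells, and the 2 Pmaip1 arrays of a group lie up to 0.764 apart.

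In limma's moderated test across all 19938 genes, Bcl2 was 0.88 log2 units higher in Th17 than in Th1 wild-type cells (SE 0.141, 95% confidence interval 0.58 to 1.19, adjusted p = 0.00212). In Tet2-/- cells it was 0.53 higher (SE 0.141, interval 0.23 to 0.84, adjusted p = 0.0312). The wild-type call held in 19 of 20 alternatives, with adjusted p between 0.00107 and 0.0558. It was lost, at 0.78, only without both arrays set apart by the sex-linked genes. That setting drops the Th17 wild-type array that is low in Xist, as the Th1 arrays are. Without replicate 2 of Th17 wild-type instead, the one high in Xist, the difference was 0.98. The Tet2-/- call held in 11 of 20. It was lost without any 1 of the 4 Tet2-/- arrays: at 0.48 (adjusted p = 0.216) without replicate 1 and 0.58 (adjusted p = 0.101) without replicate 2 of Th17, and at 0.56 (adjusted p = 0.114) without replicate 1 and 0.51 (adjusted p = 0.130) without replicate 2 of Th1. Without both sex-linked arrays its adjusted p was 0.132.

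Bcl2l1, which encodes Bcl-xL, was tested at probeset 10488655. It read 8.35 and 8.24 in Th17 Tet2-/- cells and 8.47 and 8.67 in Th17 wild-type cells, against 8.74 and 8.54 in Th1 Tet2-/- cells and 8.60 and 8.73 in Th1 wild-type cells. The 2 Th17 Tet2-/- arrays were the lowest of the 8. The Th17 minus Th1 difference was -0.34 in Tet2-/- cells (SE 0.129, limma adjusted p = 0.116) and -0.094 in wild-type cells (adjusted p = 0.710), so neither passed the threshold of an adjusted p of 0.05. When the arrays were quantile-normalised once more, the Tet2-/- difference was -0.52 and passed (adjusted p = 0.0149).

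Mcl1, a short-lived prosurvival protein that T cells need in development and after activation, read 10.82 and 10.66 in Th17 Tet2-/- cells and 10.84 and 10.46 in Th17 wild-type cells, against 10.12 and 10.49 in Th1 Tet2-/- cells and 10.27 and 10.59 in Th1 wild-type cells (probeset 10494306). The Tet2-/- arrays of the 2 cell types did not overlap, and the wild-type arrays did. Its Th17 minus Th1 difference was 0.44 in Tet2-/- cells (SE 0.171, limma adjusted p = 0.131) and 0.22 in wild-type cells (adjusted p = 0.471).

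The BH3-only gene Bcl2l11, which encodes Bim, ran opposite to Bcl2 between the cell types and differed most between the genotypes. Its probeset (10475866) read 8.20 and 8.12 in Th17 Tet2-/- cells against 7.64 and 7.96 in Th17 wild-type cells, and 8.62 and 8.62 in Th1 Tet2-/- cells against 8.22 and 8.10 in Th1 wild-type cells. Within each cell type both Tet2-/- arrays lay above both wild-type arrays, and within each genotype both Th17 arrays lay below both Th1 arrays. Th17 Tet2-/- and Th1 wild-type cells shared a mean of 8.16 (SD 0.0568 and 0.0892, n = 2 each). The highest group was Th1 Tet2-/- at 8.62 ± 0.00161 and the lowest Th17 wild-type at 7.80 ± 0.226.

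Between the cell types, Bcl2l11 fell by 0.46 log2 units in Th17 against Th1 Tet2-/- cells (SE 0.131, interval -0.74 to -0.18, limma adjusted p = 0.0423), a 1.37-fold difference. In wild-type cells the difference was -0.36 (SE 0.131, interval -0.64 to -0.074, adjusted p = 0.113) and did not pass. The Tet2-/- call held in 12 of 20 alternatives. It was lost without any 1 of the 4 Tet2-/- arrays, with adjusted p of 0.152 and 0.202 without replicates 1 and 2 of Th17 and 0.163 and 0.138 without replicates 1 and 2 of Th1, and its adjusted p was 0.189 without both sex-linked arrays. After a further quantile normalisation the Th17 minus Th1 difference passed in both genotypes, at -0.62 in Tet2-/- cells (adjusted p = 0.00756) and -0.51 in wild-type cells (adjusted p = 0.0270), while Bcl2 stood at 0.41 in Tet2-/- cells (adjusted p = 0.0503) and 0.77 in wild-type cells (adjusted p = 0.00172).

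Bbc3, Bid, Bad and Pmaip1, the other BH3-only members followed, did not pass between the cell types in either genotype. Bbc3, which encodes the p53 target Puma, read 5.90 and 6.01 in Th17 Tet2-/- cells and 5.77 and 5.93 in Th17 wild-type cells, against 6.16 and 5.96 in Th1 Tet2-/- cells and 5.94 and 6.12 in Th1 wild-type cells (probeset 10550290). These values lie below the array medians of 6.57 to 6.62, and the Th17 minus Th1 differences were -0.10 in Tet2-/- cells (limma adjusted p = 0.662) and -0.18 in wild-type cells (adjusted p = 0.390). Bid, which is cleaved by caspase-8 and so links death receptors to the mitochondria, had group means of 6.60 in Th17 Tet2-/-, 6.71 in Th17 wild-type, 6.88 in Th1 Tet2-/- and 6.73 in Th1 wild-type cells (probeset 10547531). The Bid arrays of Th17 Tet2-/- (6.67 and 6.54) lay below those of Th1 Tet2-/- (6.85 and 6.91), with a difference of -0.28 (SE 0.114, adjusted p = 0.158), while the wild-type difference was -0.026 (adjusted p = 0.920).

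Bad, whose protein is kept inactive by growth factor signalling, had group means of 6.56 in Th17 Tet2-/-, 6.50 in Th17 wild-type, 6.67 in Th1 Tet2-/- and 6.44 in Th1 wild-type cells, and the arrays of the cell types overlapped in both genotypes (probeset 10461017). Pmaip1, which encodes Noxa, the partner of Mcl-1, read 8.00 and 7.23 in Th17 Tet2-/- cells and 7.98 and 7.41 in Th17 wild-type cells, against 7.42 and 7.81 in Th1 Tet2-/- cells and 7.91 and 7.35 in Th1 wild-type cells (probeset 10456357). The replicates of every group lay further apart than the 4 group means did, which spanned 0.080 log2 units. The Pmaip1 difference between Th17 and Th1 cells was -0.0013 in Tet2-/- cells and 0.064 in wild-type cells, with intervals of -0.56 to 0.56 and -0.50 to 0.63. Both signs turned with the scaling, to 0.018 after median centring in Tet2-/- cells and -0.069 after a further quantile normalisation in wild-type cells.

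Bak1, the pore former that was measured, read 8.60 and 8.49 in Th17 Tet2-/- cells and 8.33 and 8.44 in Th17 wild-type cells, against 8.81 and 8.99 in Th1 Tet2-/- cells and 8.86 and 8.32 in Th1 wild-type cells (probeset 10449303). The Tet2-/- arrays did not overlap between the cell types, and in wild-type cells replicate 2 of Th1 lay below both Th17 arrays. The Th17 minus Th1 difference was -0.35 in Tet2-/- cells (SE 0.163, limma adjusted p = 0.203) and -0.20 in wild-type cells (adjusted p = 0.483).

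**Figure D2:**
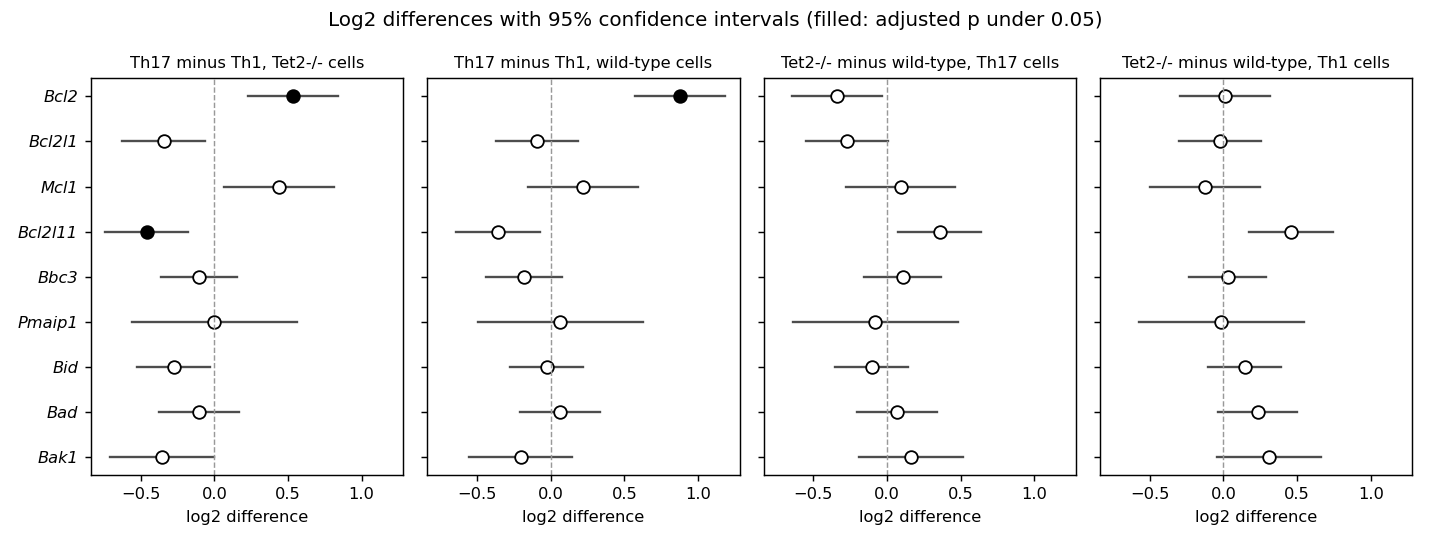
Log2 differences of the 9 members in 4 comparisons, with 95% confidence intervals from the limma fit. Filled points passed an adjusted p of 0.05: Bcl2 in Th17 against Th1 cells of both genotypes, and Bcl2l11 in Th17 against Th1 Tet2-/- cells, while no member passed between the genotypes.

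Counted over the family, 2 of the 9 members passed in Th17 against Th1 Tet2-/- cells, beside 10.4% of all genes; 1 was higher, beside 7.14% of all genes, and 1 lower, beside 3.29%. In wild-type cells 1 of 9 passed, beside 8.47%; it was higher, as were 5.3% of all genes, while 0 members and 3.17% of all genes were lower. At an unadjusted p of 0.05 the counts were 6 of 9 in Tet2-/- cells against 24.5% of all genes, and 2 of 9 in wild-type cells against 24.4%. The arrays of the cell types did not overlap for 6 of 9 members in Tet2-/- cells, beside 56.4% of all genes, and for 3 of 9 in wild-type cells, beside 51.9%. The median difference of the members was -0.10 in Tet2-/- and -0.026 in wild-type cells, against -0.0071 and -0.015 over all genes. The comparisons share arrays, since each group enters both a genotype and a cell type comparison.

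The shift between the cell types varied with the level of a gene. Genes with a mean level of 8 to 10, where Bcl2l1, Bcl2l11 and Bak1 lie, had a median Th17 minus Th1 difference of 0.164 in Tet2-/- and 0.157 in wild-type cells. Genes above 10, where Bcl2 and Mcl1 lie, had medians of 0.0867 and 0.0921. Relative to these medians the Bcl2l11 differences would be further below 0 and the Bcl2 differences nearer to it. Of all genes that passed, 68.5% were higher in Th17 Tet2-/- cells and 62.5% in Th17 wild-type cells, and after the further quantile normalisation 55.7% and 51.6%. The part of this shift in the members' results was not tested beyond the values given under that normalisation.

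Markers of other cells also moved with the cell type. Of 8 stromal and endothelial markers, 3 passed higher and 1 lower in Th17 against Th1 Tet2-/- cells, beside 7.14% and 3.29% of all genes. In wild-type cells 2 passed higher and 1 lower, beside 5.3% and 3.17%. The mean of the 8 was 7.11 to 7.18 in Th17 Tet2-/- and 6.80 to 6.90 in Th17 wild-type arrays. It was 6.69 to 6.71 in Th1 Tet2-/- and 6.52 to 6.57 in Th1 wild-type arrays. Lum read 8.13 and 8.00 in Th17 Tet2-/- and 6.98 and 7.10 in Th17 wild-type cells. In Th1 cells it read 5.07 and 5.33 in Tet2-/- and 5.12 and 5.41 in wild-type cells. Sparc went the other way and passed lower in both genotypes. It averaged 7.09 in Th17 against 8.15 in Th1 Tet2-/- cells, and 6.89 against 7.64 in wild-type cells. The collagen genes Col1a1, Col1a2 and Col3a1 did not pass in either genotype. Of 4 NK markers, Klrd1 alone passed, in Tet2-/- cells, and the NK mean was 5.21 to 5.41 in Th17 Tet2-/- and 4.87 to 4.92 in Th17 wild-type arrays, against 4.81 in Th1 Tet2-/- and 4.89 to 4.92 in Th1 wild-type arrays. Their part in the Bcl2 and Bcl2l11 results was not tested. The mean of 7 T cell markers was 10.7 to 10.9 on every array. Of the 7, Cd28 alone passed, with a mean of 12.09 in Th17 against 11.57 in Th1 Tet2-/- cells. Cd2 was lower there (10.35 against 10.75) and did not pass. The B cell and myeloid means lay between 5.26 and 5.51, and the CD8 and erythroid means between 5.92 and 6.56.

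Between the genotypes no member passed the test in either cell type. The largest difference was that of Bcl2l11 in Th1 cells, 0.46 log2 units higher in Tet2-/- than in wild-type cells (SE 0.131, interval 0.17 to 0.74, unadjusted p = 0.00411, limma adjusted p = 0.824), or 1.37-fold. It ranked 85 of 19938 genes by p. In Th17 cells Bcl2l11 was 0.36 log2 units above wild-type (SE 0.131, interval 0.073 to 0.64, unadjusted p = 0.0177, adjusted p = 0.999). Without both sex-linked arrays this Th17 difference was 0.24, and it was 0.20 without replicate 1 of Th17 wild-type alone. Over both cell types the mean difference of Bcl2l11 was 0.41 (SE 0.0923, interval 0.21 to 0.61, adjusted p = 0.573), with an unadjusted p of 7.8e-04 and rank 27. It kept its sign in every alternative run, between 0.33 and 0.49 for the mean, and did not pass, with a lowest adjusted p of 0.357. Leaving out arrays could not turn that sign, since both Tet2-/- arrays lay above both wild-type arrays in each cell type. Changes of the prior, the probeset rule or the filter left the difference itself unchanged. Of the 8 stromal and endothelial markers, all 8 were higher in Tet2-/- than in wild-type Th17 cells, as were 11287 of 19938 genes. Lum was 1.02 above wild-type there (limma adjusted p = 0.0689). In Th1 cells 6 of the 8 were higher, as were 10402 of 19938 genes, and 2 were lower. For the mean of both cell types, 4 of 8 had an unadjusted p under 0.05, beside 5.32% of all genes. Of the NK markers, Klrd1 was 1.24 above wild-type in Th17 Tet2-/- cells (adjusted p = 0.178). None of these passed, and their part in the Bcl2l11 and Bcl2 genotype differences was not tested.

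Of the prosurvival members, Bcl2 was 0.34 log2 units below wild-type in Th17 Tet2-/- cells (SE 0.141, interval -0.65 to -0.036, unadjusted p = 0.0314, limma adjusted p = 0.999), and both Tet2-/- arrays lay below both wild-type arrays. Without both sex-linked arrays the difference was -0.19. In Th1 cells the Bcl2 difference was 0.0081 (-0.0057 after median centring) and the arrays overlapped. The test of the difference between these 2 values gave -0.35 (SE 0.199, interval -0.78 to 0.083, adjusted p = 0.999), so an unequal genotype difference was not shown. For Bcl2l1 the genotype difference was -0.27 in Th17 cells (SE 0.129, interval -0.55 to 0.0069, unadjusted p = 0.0551), with no overlap, and -0.022 in Th1 cells. For Mcl1 it was 0.093 in Th17 and -0.13 in Th1 cells.

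Among the death-promoting members, Bak1 was 0.16 log2 units above wild-type in Th17 Tet2-/- cells, with no overlap, and 0.31 above it in Th1 Tet2-/- cells (SE 0.163, limma adjusted p = 0.853), where the arrays overlapped. Bad was 0.064 and 0.23 above wild-type in Th17 and Th1 Tet2-/- cells, and only the Th1 arrays did not overlap (6.73 and 6.61 in Tet2-/- against 6.54 and 6.33 in wild-type). For Bid the genotype difference was -0.10 in Th17 and 0.15 in Th1 cells. Bbc3 differed by 0.11 and 0.028, and Pmaip1 by -0.080 and -0.014, in Th17 and Th1 cells.

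By count, 0 of 9 members passed between the genotypes in Th17 cells, as did 0 of all genes, and 0 of 9 in Th1 cells, beside 0.00502% of all genes (1 gene, Ifng). At an unadjusted p of 0.05 the counts were 2 of 9 in Th17 cells against 4.25% of all genes, and 1 of 9 in Th1 cells against 5.74%. The arrays of the genotypes did not overlap for 4 of 9 members in Th17 cells, beside 33.2% of all genes, and for 3 of 9 in Th1 cells, beside 32.7%. For the mean of both cell types, 0 of 9 members and 0 of all genes passed, and 1 of 9 (Bcl2l11) against 5.32% reached an unadjusted p of 0.05. For the difference between the 2 genotype effects, 0 of 9 members and 0 of all genes passed, with 0 of 9 and 4.55% at an unadjusted p of 0.05. The intervals were wide: a gene with the median SE of 0.125 needed a difference of 0.271 log2 units to reach an unadjusted p of 0.05.

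**Figure D3:**
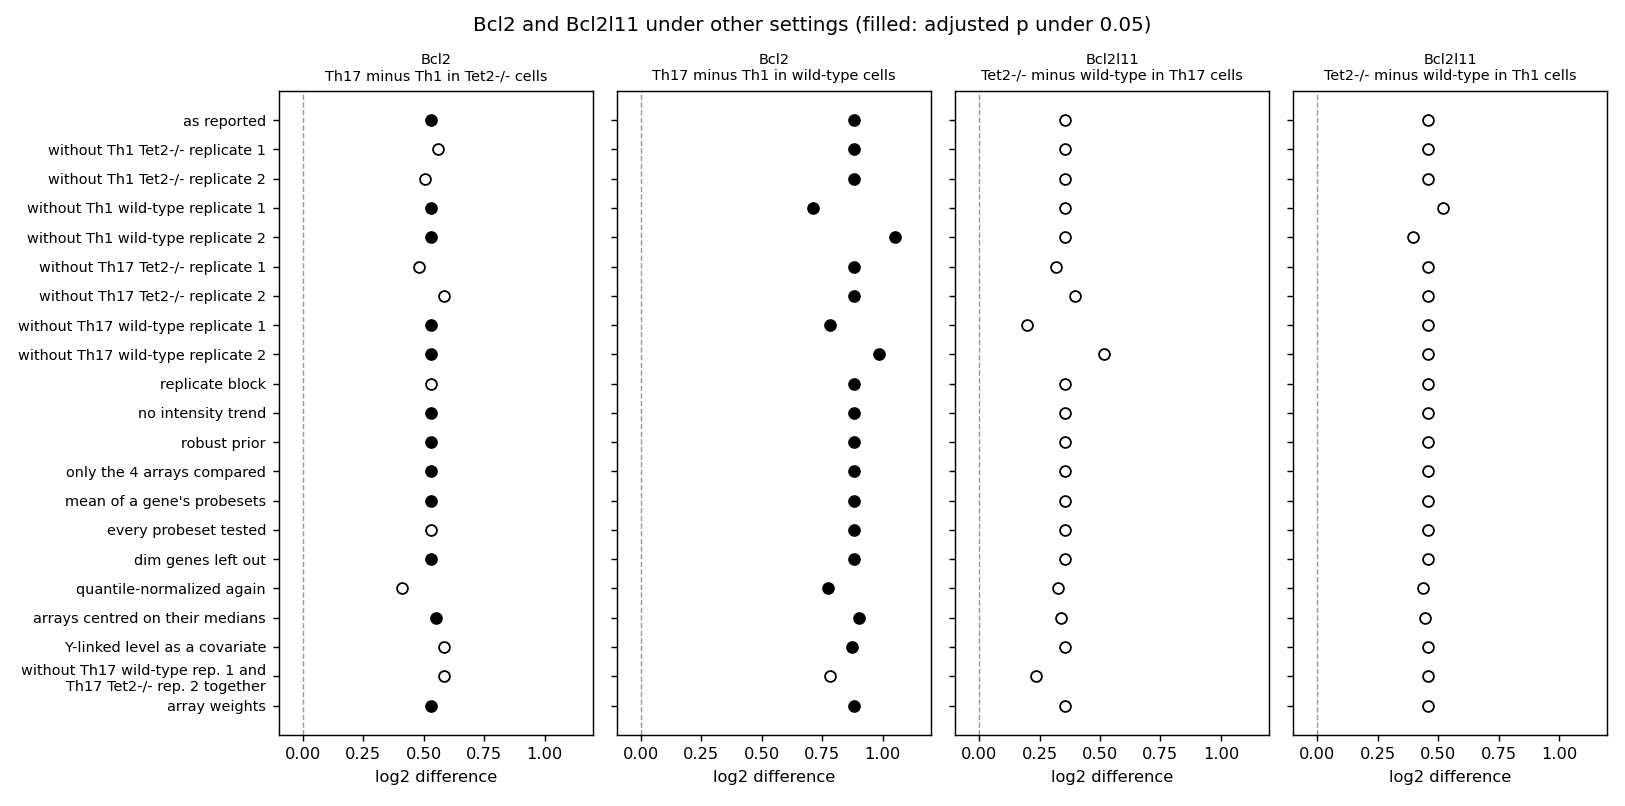
Log2 differences of Bcl2 (Th17 minus Th1, in Tet2-/- and wild-type cells) and Bcl2l11 (Tet2-/- minus wild-type, in Th17 and Th1 cells) under the 21 settings run, the reported one included. Filled points passed an adjusted p of 0.05. Leaving out arrays could not turn a sign here, since the arrays compared do not overlap. The Bcl2 values stay above 0 in both genotypes and pass in 19 of 20 alternatives in wild-type but 11 of 20 in Tet2-/- cells, and the Bcl2l11 values stay above 0 and do not pass.

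Of the other genes of the apoptosis pathway, those that act beside the family were counted in fixed lists. Among other prosurvival members only Bcl2l2 and Bcl2l10 of 5 were measured, and neither passed in any comparison. Of 7 other BH3-only and pore-forming genes, 2 passed in Th17 against Th1 Tet2-/- cells, beside 10.4% of all genes: Bnip3 and Bnip3l, which mark mitochondria for removal. In wild-type cells 1 of 7 passed, Bnip3, beside 8.47%. The median difference of the 7 was 0.24 in Tet2-/- and 0.21 in wild-type cells, against -0.0071 and -0.015 over all genes. Bnip3 read 8.41 and 8.52 in Th17 Tet2-/- and 8.25 and 8.28 in Th17 wild-type cells, against 7.50 and 7.55 in Th1 Tet2-/- and 7.84 and 7.41 in Th1 wild-type cells. All 4 Th17 arrays lay above all 4 Th1 arrays, as in 14% of all genes. It was 0.94 log2 units higher in Tet2-/- (limma adjusted p = 0.00107) and 0.64 in wild-type cells (adjusted p = 0.0148), and Bnip3l was 0.47 higher in Tet2-/- cells (adjusted p = 0.0413).

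Downstream of the pores, 10 of 12 genes of caspases and the apoptosome were measured. In Th17 against Th1 Tet2-/- cells 3 of the 10 rose, beside 7.14% of all genes, and 0 fell, beside 3.29%: Apaf1, the scaffold that cytochrome c assembles (0.48, limma adjusted p = 0.0196), Diablo, a mitochondrial protein that counters inhibitors of apoptosis (0.58, adjusted p = 0.0204), and Aifm1 (0.54, adjusted p = 0.0289). In wild-type cells 2 of the 10 rose, beside 5.3% of all genes, and 1 fell, beside 3.17%. Diablo rose by 0.81 (adjusted p = 0.00380) and Casp8, the caspase of death receptors, by 0.55 (adjusted p = 0.0223), while the mitochondrial protease gene Htra2 fell by 0.59 (adjusted p = 0.0221). The median difference of the 10 genes was 0.22 in Tet2-/- and 0.095 in wild-type cells, against -0.0071 and -0.015 over all genes. The 10 had mean levels from 6.16 (Endog) to 11.7 (Cycs). By level, the medians over all genes were 0.164 and 0.157 at 8 to 10. They were -0.00045 and 0.0050 at 6 to 8, and 0.0867 and 0.0921 above 10.

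Of 11 genes for inhibitors of apoptosis and the death receptor arm, 10 were measured, and Fasl, the ligand by which T cells kill one another, moved most. Fasl read 6.13 and 6.23 in Th17 Tet2-/- and 6.46 and 6.43 in Th17 wild-type cells, against 7.87 and 7.76 in Th1 Tet2-/- and 8.13 and 8.12 in Th1 wild-type cells. The cell types were far apart in both genotypes, and within each cell type both Tet2-/- arrays lay below both wild-type arrays. The genotypes did not overlap, in either direction, for 33.2% of all genes in Th17 and 32.7% in Th1 cells. Fasl fell by 1.64 log2 units in Th17 against Th1 Tet2-/- cells (limma adjusted p = 2.08e-06) and by 1.68 in wild-type cells (adjusted p = 1.48e-06), and passed in all 20 alternatives in each genotype. Xiap, an inhibitor of caspases, was 0.60 higher in Tet2-/- cells (adjusted p = 0.0317), and the adaptor Fadd 0.39 higher in wild-type cells (adjusted p = 0.0432). In each genotype 2 of the 10 passed, beside 10.4% of all genes in Tet2-/- and 8.47% in wild-type cells. The median difference of the 10 was 0.054 in Tet2-/- and 0.058 in wild-type cells, against -0.0071 and -0.015 over all genes.

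Upstream of the family, 20 of 22 survival receptors and regulators were measured. In Th17 against Th1 Tet2-/- cells 4 of the 20 rose and 1 fell, beside 7.14% and 3.29% of all genes, and in wild-type cells 3 rose and 0 fell, beside 5.3% and 3.17%. Their median difference was 0.0047 in Tet2-/- and 0.092 in wild-type cells. Stat5b, which carries IL-2 and IL-7 signals, was 0.54 higher in Tet2-/- (limma adjusted p = 0.0136) and 0.65 in wild-type cells (adjusted p = 0.00607). Il6st, the signalling chain of the IL-6 receptor, was 0.49 (adjusted p = 0.0155) and 0.51 (adjusted p = 0.0156) higher in these genotypes. Foxo1, a forkhead factor that drives Il7r in T cells, was 0.58 higher in Tet2-/- (adjusted p = 0.0317) and 0.71 in wild-type cells (adjusted p = 0.0138). Il7r was 0.57 higher in Tet2-/- cells (adjusted p = 0.0172). The kinase gene Pim1, named after its values were seen, fell by 0.49 in Tet2-/- cells (adjusted p = 0.0426).

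**Figure D4:**
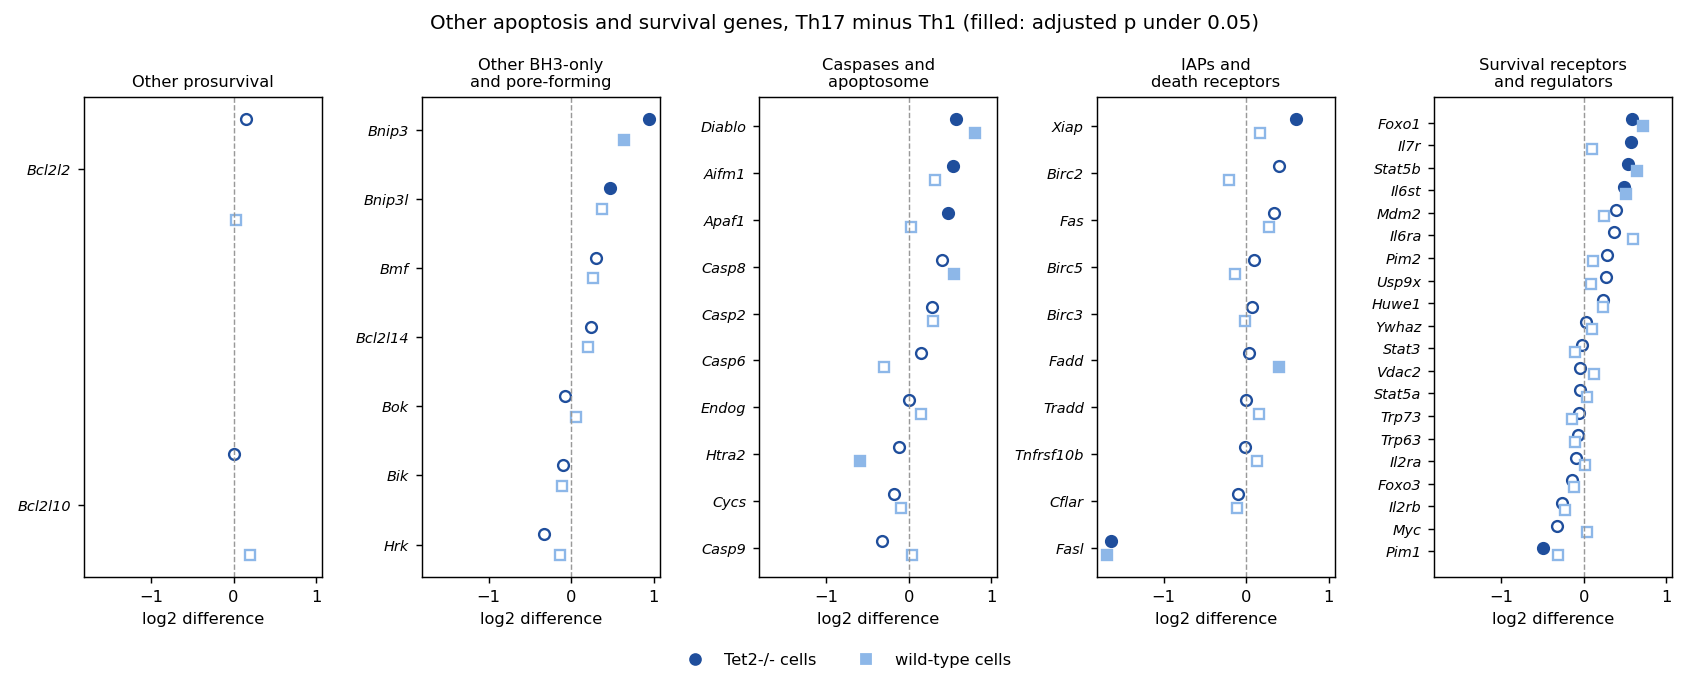
Log2 Th17 minus Th1 differences of the measured genes of the other apoptosis and survival lists, with circles for Tet2-/- and squares for wild-type cells and filled symbols for an adjusted p under 0.05. Fasl stands furthest below 0 in both genotypes, at -1.64 and -1.68, and Bnip3, Diablo, Stat5b, Il6st and Foxo1 are the genes above 0 that passed in both.

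Most of these calls were lost in some alternatives. Besides Fasl, Bnip3 in Tet2-/- cells passed in all 20 alternatives, and Diablo and Stat5b in wild-type cells in 19, each lost in 1. The other calls held in 5 (Fadd) to 17 (Foxo1 in wild-type cells) of 20. Without both sex-linked arrays, 3 of the 12 calls of these lists held in Tet2-/- cells (Fasl, Bnip3 and Foxo1) and 4 of the 9 in wild-type cells (Fasl, Diablo, Stat5b and Foxo1). In Tet2-/- cells the adjusted p was then 0.0572 for Stat5b, 0.0847 for Il7r, 0.111 for Il6st, 0.130 for Apaf1, 0.158 for Diablo, 0.164 for Aifm1, 0.192 for Xiap, 0.237 for Bnip3l and 0.279 for Pim1. In wild-type cells it was 0.0926 for Bnip3, 0.107 for Il6st, 0.117 for Fadd, 0.172 for Casp8 and 0.212 for Htra2. These differences kept their sign.

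Between the genotypes 0 genes of any of these lists passed. The smallest p in Th1 cells was that of Il7r, whose arrays read 10.10 and 10.29 in Tet2-/- cells against 10.58 and 10.81 in wild-type cells, a difference of -0.50 (SE 0.135, unadjusted p = 0.00287, limma adjusted p = 0.824). In Th17 cells it was that of Birc2, an inhibitor of apoptosis, at 0.41 (unadjusted p = 0.0113, adjusted p = 0.960).

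By Pearson correlation over the 8 arrays, against 2721 genes whose group means spanned at least 0.5 log2 units, the pattern of Bcl2 was most like those of Hps3 (r = 0.989), Tmem251 (0.986) and Rbl2 (0.985). With 278 genes above r = 0.9, its pattern was a common one. That of Bcl2l11 was most like Pld3 (0.960), Nup210l (0.941) and Olfr284 (0.931), with 9 genes above 0.9, and that of Bak1 most like Trim30d (0.909), Nat14 (0.906) and Cfap77 (0.898), with 2. The 8 points share 4 groups, so these correlations describe the group pattern along with gaps between replicates. In Th1 wild-type cells Bak1 read 8.86 and 8.32, and Trim30d 7.07 and 4.60. That Bak1 gap of 0.542 is larger than the 0.515 that its group means span.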

How the data were processed

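RNA of 8 cultures was measured on Affymetrix arrays. The deposited values are log2 levels per probeset. The submitters' processing notes name RMA and Partek as the authors' tools. Their versions and the log base are not stated in the sources used here; the range of values fits log2. Precision is limited by the 2 arrays per group. Of 35556 probesets, 21789 had 1 symbol in the platform annotation, 1621 several and 12146 none listed. Entrez IDs of 21698 matched RefSeq's GRCm38.p6 gene table and 0 symbols changed. The brightest probeset by mean stood for each of 19938 genes.

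The test was limma 3.58.1 under R 4.3.3, with a linear model of 4 group means over the 8 arrays (lmFit, eBayes with an intensity trend, 4 residual and 8.44 prior degrees of freedom). Two-sided p-values were adjusted over all genes by Benjamini-Hochberg, with calls at an adjusted p under 0.05. The code was tested on simulated data. The labels number the replicates without stating a pairing, and the reported fit did not pair them. The correlations of replicate 1 minus replicate 2 between groups were -0.189 to 0.0534.

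Members and lists were chosen with earlier results of these data known. All members are named, and up to 4 genes with the smallest p from each list of other apoptosis genes. For the 3 members with the widest range of group means, the 3 most similar genes by Pearson r are named. Alternatives left out each array, added the replicate number as a block, a Y-linked covariate or array weights, and changed the prior, the probeset rule, the filter and the normalisation.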

Additional observations from a re-analysis of the deposited data

How the results depend on the processing

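Of the members' calls, that of Bcl2 in Th17 against Th1 wild-type cells held in the most alternatives (19 of 20). Of 59 named differences that passed under no setting, 36 kept their sign in every alternative. Where the arrays compared did not overlap, leaving out arrays could not turn the sign. With 2 arrays a group, leaving out 1 array moved the number of genes that passed to between 815 and 2383 for Th17 against Th1 in Tet2-/- cells and 667 to 1560 in wild-type cells (0 to 2 and always 1 of the members), and to 0 to 9 between the genotypes in Th17 cells, 0 to 2 in Th1 cells, 0 to 4 for their difference and 0 to 5 for their mean, with always 0 members. The low ends of the Th17 against Th1 counts came without 1 array of the genotype compared: 815 and 1146 without replicates 1 and 2 of Th17 Tet2-/-, 1003 and 1251 without those of Th1 Tet2-/-, 667 without replicate 2 of Th17 wild-type and 1013 without replicate 1 of Th1 wild-type. With the replicate number as a block, 0 members passed in Tet2-/- cells (adjusted p of 0.0565 for Bcl2 and 0.0680 for Bcl2l11), and likewise 0 with a Y-linked covariate. With every probeset tested, 1064 probesets passed in Tet2-/- and 622 in wild-type cells, 0 members in Tet2-/- cells and 0 genes between the Th1 genotypes. Without Th17 Tet2-/- replicate 2 and Th17 wild-type replicate 1 together, 975 and 808 genes passed, 0 members in either genotype, and 0 genes between the Th1 genotypes. A second quantile normalisation called 2 members in wild-type cells and 1 gene for the mean genotype difference. Array weights called 2 genes between the Th17 genotypes, and without dim genes 2 passed there and 2 for the mean. A fit of only the 4 arrays compared called 0 genes between the Th1 genotypes, and could not be made for the mean or the difference. Bbc3 had no value without dim genes.

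The sign turned 65 times, in differences that had not passed. Leaving out 1 array gave these ranges. Between the genotypes in Th17 cells, Mcl1 ran from -0.096 to 0.28, Pmaip1 from -0.46 to 0.30 and Bad from -0.063 to 0.19. In Th1 cells, Bcl2 ran from -0.16 to 0.18, Bcl2l1 from -0.12 to 0.080, Mcl1 from -0.31 to 0.056, Bbc3 from -0.075 to 0.13 and Pmaip1 from -0.30 to 0.27. For the difference of the genotype effects, Bcl2l11 ran from -0.26 to 0.059, Bak1 from -0.42 to 0.12, Bbc3 from -0.025 to 0.18 and Pmaip1 from -0.45 to 0.32. For their mean, Mcl1 ran from -0.11 to 0.078, Pmaip1 from -0.24 to 0.14 and Bid from -0.018 to 0.059. For Th17 minus Th1 in Tet2-/- cells, Bbc3 ran from -0.21 to 0.00024 and Pmaip1 from -0.38 to 0.38, and in wild-type cells Bcl2l1 from -0.19 to 0.0047, Bak1 from -0.48 to 0.066, Pmaip1 from -0.22 to 0.35, Bid from -0.10 to 0.051 and Bad from -0.064 to 0.19.

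With the Y-linked covariate, Pmaip1 stood at 0.25 between the Th17 genotypes, 0.0043 between the Th1 genotypes, 0.24 for their difference, 0.13 for their mean and 0.26 for Th17 minus Th1 in Tet2-/- cells, Bad at -0.0073 between the Th17 genotypes and Mcl1 at 0.040 for the mean. Without both sex-linked arrays, Pmaip1 stood at 0.58 between the Th17 genotypes, 0.60 for the difference, 0.29 for the mean, and 0.38 and -0.22 for Th17 minus Th1 in Tet2-/- and wild-type cells. There Bbc3 stood at -0.027 between the Th17 genotypes and -0.055 for the difference, Bad at -0.12 between the Th17 genotypes, Mcl1 at 0.12 for the mean, and Bcl2l1 at 0.0047 and Bid at 0.047 for Th17 minus Th1 in wild-type cells. Median centring gave Bcl2 -0.0057 between the Th1 genotypes and Pmaip1 0.018 for Th17 minus Th1 in Tet2-/- cells, and the second quantile normalisation gave Pmaip1 -0.069 in wild-type cells. The cause of these changes was not tested, beyond fewer arrays or more features being tested where the setting itself says so.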

Other observations

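The replicate spread of the members differed. Pooled over the 4 groups, the SD of Pmaip1 was 0.415 log2 units, larger than that of 99.7% of all genes, while the SDs of Bcl2 (0.146) and Bcl2l11 (0.125) were at the 66.6 and 53.3 percentiles. The 2 arrays of a group differed by up to 0.764 for Pmaip1.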
